A study of Mus musculus with 6 samples.

Results

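Of 23377 genes in the deposited normalized table, 31 were chosen by their normalized values in both genotypes: the lower of the 2 wild-type values was at least 30 and at least 3 times the higher of the 2 knockout values. These values are counts divided by 1 size factor per library, called normalized counts below. The rule uses the contrast of knockout with wild type, so the difference between the genotypes in these genes is a description and not a finding. The 31 genes were 0.305% of the 10171 genes whose wild-type values both reached 30. The mirrored rule, higher in the knockout, took 401 genes, or 3.65% of the 10989 genes with both knockout values at 30 or more.

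The libraries were made from hair follicle stem cells of C57BL/6 mice, 2 of the genotype Ring1a/b-/- and 2 labelled WT, by SMART-seq2 from 3000 sorted cells per sample. The sources used here do not give the Cre driver or other means of deletion, the time since deletion, the age of the mice or any pooling of animals. Nothing says that the libraries of a genotype came from separate animals. The p-values therefore measure the spread between these libraries alone, which may be technical. Ring1a and Ring1b are E3 ubiquitin ligases, either of which can serve as the catalytic core of PRC1 (Polycomb repressive complex 1), known for keeping developmental genes silent.

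Total counts were 2785843 and 3056593 for the wild type against 4844381 and 7740945 for the knockout, so that 1 count was worth 0.521 to 1.59 normalized counts. Keratinocyte and follicle stem cell markers were present in all 4 libraries, with Krt14 at 871 to 1221, Lhx2 at 445 to 583 and Lgr5 at 584 to 1036 normalized counts. Their levels were not all alike between genotypes. Sox9 stood at 206 and 394 in the wild type against 711 and 654 in the knockout. Cd34 stood at 102 and 84.3 against 63.4 and 10.9. Ring1, which encodes Ring1a, stood at 133 and 122 in the wild type against 64.2 and 77.1 in the knockout. Rnf2, which encodes Ring1b, stood at 604 and 363 against 622 and 641. These are counts over whole genes, in which a deleted exon is not seen, and they do not check the genotype labels. Ribosomal protein and respiratory chain genes, 66 of 75 and 60 of 76 of them lower in DESeq2 (0 of each in edgeR, with 69 and 67 at an unadjusted p under 0.05), held a smaller share of the knockout counts; over all genes 6.14% were lower in DESeq2 and 8.16% at an unadjusted p in edgeR.

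A growing follicle has stem cells, a matrix of dividing progenitors that secrete Sonic hedgehog, and differentiating layers whose proteins are cross-linked by transglutaminases. Secreted Wnt inhibitors and matrix proteins shape the signals that pass between the epithelium and the dermal papilla below it.

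Promoter sequences are shown for 6 members with an entry in the RefSeq table (GRCm38.p6). Thbs2, Casp12, Cryba4 and Srms had some of the largest differences between genotypes, and Prr9 and Wif1 had the highest wild-type counts. Each line gives the 250 bases before a start annotated in the table, which for Casp12, Cryba4 and Srms lies inside the span of the gene, 5′ to 3′ on the strand of the gene, and capitals mark the dinucleotide CG, which reads the same on both strands. PRC1 is known to gather at promoters rich in CG.
Thbs2, chr17:14694263-14694512, strand minus: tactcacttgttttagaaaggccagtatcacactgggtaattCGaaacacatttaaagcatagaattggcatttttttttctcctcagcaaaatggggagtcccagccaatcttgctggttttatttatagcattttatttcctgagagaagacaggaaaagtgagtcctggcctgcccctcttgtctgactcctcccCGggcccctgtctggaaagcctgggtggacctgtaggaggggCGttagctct
Casp12, chr9:5345226-5345475, strand plus: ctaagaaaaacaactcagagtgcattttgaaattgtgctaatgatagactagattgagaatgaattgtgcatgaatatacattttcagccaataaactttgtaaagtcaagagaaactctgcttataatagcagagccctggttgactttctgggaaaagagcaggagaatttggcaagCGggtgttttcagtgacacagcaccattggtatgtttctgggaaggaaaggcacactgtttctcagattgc
Cryba4, chr5:112252519-112252768, strand minus: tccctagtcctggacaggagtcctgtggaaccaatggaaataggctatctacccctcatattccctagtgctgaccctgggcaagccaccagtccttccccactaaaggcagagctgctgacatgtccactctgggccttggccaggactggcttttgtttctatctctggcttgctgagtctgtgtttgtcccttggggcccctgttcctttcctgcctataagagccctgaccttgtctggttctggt
Srms, chr2:181213172-181213421, strand minus: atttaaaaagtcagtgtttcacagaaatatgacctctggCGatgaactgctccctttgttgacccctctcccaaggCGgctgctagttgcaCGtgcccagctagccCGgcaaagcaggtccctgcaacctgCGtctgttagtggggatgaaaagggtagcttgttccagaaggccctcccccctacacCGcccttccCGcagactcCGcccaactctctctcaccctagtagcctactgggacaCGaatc
Prr9, chr3:92123948-92124197, strand minus: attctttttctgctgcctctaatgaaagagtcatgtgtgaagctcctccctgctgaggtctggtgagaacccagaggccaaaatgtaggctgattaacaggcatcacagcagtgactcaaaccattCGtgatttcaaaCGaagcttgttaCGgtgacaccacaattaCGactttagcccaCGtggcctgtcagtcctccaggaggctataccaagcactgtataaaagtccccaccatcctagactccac
Wif1, chr10:121033754-121034003, strand plus: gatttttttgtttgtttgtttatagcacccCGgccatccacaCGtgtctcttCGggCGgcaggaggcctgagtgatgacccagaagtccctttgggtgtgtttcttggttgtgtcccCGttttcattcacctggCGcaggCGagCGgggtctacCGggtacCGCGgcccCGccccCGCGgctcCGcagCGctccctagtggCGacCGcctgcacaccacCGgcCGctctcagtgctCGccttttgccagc

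CG occurred 3 times upstream of Thbs2, 1 time upstream of Casp12, 0 times upstream of Cryba4 and 5 times upstream of Prr9. Srms held 9 and Wif1 held 21 in the same length. Of all 32851 promoters in the table, 92.1% held at least 1 CG in these 250 bases, with a median of 6. The 6 promoters thus ran from no CG to a number above the upper quartile of 16, and they shared no CG content. All promoters include those of genes that did not reach 30 in the wild type. Counted over 300 bases, 50 of them after the start, the median was 7 over all promoters. It was 21 over promoters of other genes with both wild-type values at 30 or more. A comparison of the whole group with other genes is void, because the table had an entry for 22 of the 31 members (71.0%), under the 80% set for such a comparison. The members with no entry are Shh, Fzd8, Nme5, Hsd11b2, Jade2, Pm20d1, Glb1l2, Gm16523 and E430018J23Rik.

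The members were genes of modest read number in the wild type that were at a few counts, or at a lower but measurable level, in the knockout libraries. Mean wild-type values ran from 35.8 to 686 normalized counts with a median of 79.1, against a median of 300.01 over the 10171 genes that reached 30 in both wild-type libraries. In bulk samples fewer cells of a type and less RNA per cell cannot be told apart. Together the members held 0.0832% of all wild-type counts and 0.012% of all knockout counts. Counts are not corrected for transcript length, so these values rank no transcript above another in molecules. By mean wild-type value, 20 members were under 100, 8 from 100 to under 200 and 3 at 200 or more. The higher knockout value was under 5 for 7 members, from 5 to under 20 for 12 and 20 or more for the other 12. In 7 members 1 of the knockout libraries had 0 counts.

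**Figure D1:**
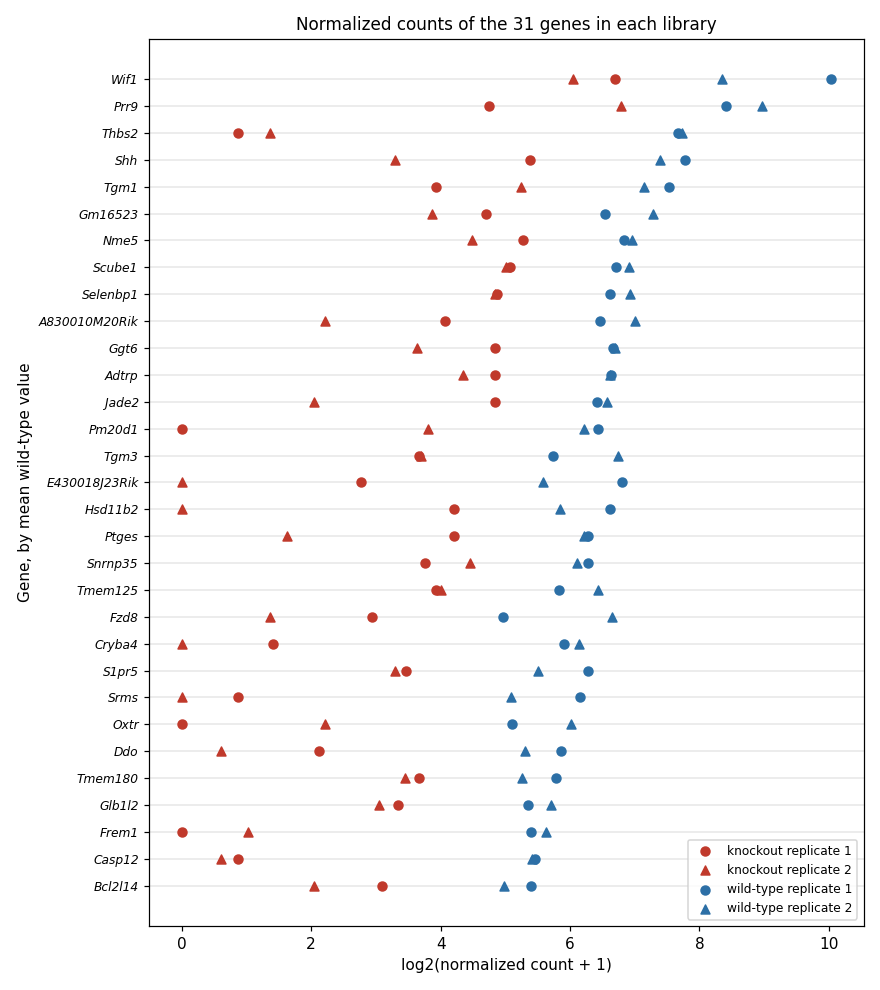
Each row is 1 of the 31 genes and each point a library, on log2(normalized count + 1), with knockout in red, wild type in blue, circles for replicate 1 and triangles for replicate 2. By the rule no knockout point reaches a wild-type point, and the gap is widest for Thbs2, with 202 and 211 against 0.834 and 1.56 normalized counts.

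Read against the whole table, 1 member, Thbs2, passed the quasi-likelihood test of edgeR, with p-values adjusted by Benjamini-Hochberg over 13134 genes, where 0.00761% of genes were called lower. At an unadjusted p under 0.05 edgeR had 24 of the 31 lower, beside 8.16% of all genes. DESeq2 had 23 of the 31 lower at an adjusted p under 0.05, beside 6.14%. The authors' deposited table marked 28 of the 31 as lower, beside 1.29% of its 14502 genes with an adjusted p, and left Hsd11b2, Tmem180 and Bcl2l14 unmarked. The rule used this contrast, so nothing is read from these shares, and all 31 passed the count filter through the wild-type libraries where they are high. The median log2 fold change of the members was -2.74 in edgeR, beside 0.03 over all genes tested. Groups did not overlap, with the knockout lower, for 27.5% of the genes that reached 30 in both wild-type libraries.

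**Figure D2:**
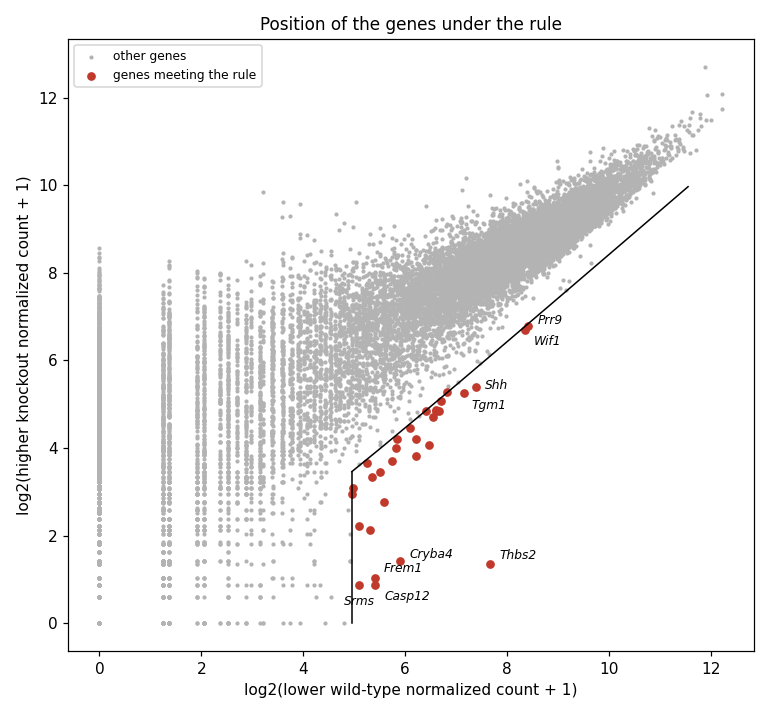
Each point is a gene, with the lower wild-type value on the x axis and the higher knockout value on the y axis, both as log2(normalized count + 1); black lines are the floor of 30 and the ratio of 3. The 31 members in red lie below the ratio line and right of the floor, 14 of them at a ratio under 4, and 5 with a ratio over 30 stand apart at the bottom.

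The ratio of the lower wild-type to the higher knockout value was under 4 for 14 members, from 4 to under 10 for 11 and 10 or more for 6. Nearest inside the ratio of 3 were Nme5 (3.00), Jade2 (3.06) and Prr9 (3.09). Nearest outside it were Gm5084 (2.98), Has2 (2.95), which encodes a hyaluronan synthase, and Acta2 (2.92), which encodes smooth muscle actin. Acta2 stood at 661 and 571 normalized counts in the wild type and 40.9 and 195 in the knockout. Nearest inside the floor were Fzd8, Bcl2l14 and Srms, with lower wild-type values of 30.2, 30.4 and 33.2. Ccdc109b, Sectm1b and Ccdc24 lay outside it at 29.0 each. In all, 17 genes had a ratio from 2.5 to under 3, and 8 genes that met the ratio had a lower wild-type value from 20 to under 30.

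The secreted signals and matrix proteins were Thbs2, Wif1, Shh, Scube1 and Frem1. Below, a fold is the ratio of the summed counts of each genotype, scaled by size factors, and its 95% interval holds the error of counting and no more, because reads copied by PCR are not separate molecules. The 5 genes had folds of wild type over knockout from 3.52 to 161. These functional groups were set after the members were known and carry no test.

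Thbs2, which encodes the secreted matrix glycoprotein thrombospondin 2, an inhibitor of vessel growth, stood at 202 and 211 normalized counts in wild-type replicates 1 and 2. It stood at 0.834 and 1.56 in knockout replicates 1 and 2, from 1 and 3 counts. Both wild-type libraries were high and close together, and both knockout libraries were near the limit of a single count. The mean was 207 ± 6.89 (SD, n = 2) in the wild type and 1.2 ± 0.515 in the knockout, a fold of 161 with an interval of 62.3 to 596. In edgeR its log2 fold change was -7.24 ± 0.84 (SE, adjusted p = 0.0431). Leaving out knockout replicate 1 ended the edgeR call at a log2 fold change of -6.95 (adjusted p = 0.108), as did leaving out replicate 2 at -7.72 (adjusted p = 0.122). Over all alternatives its adjusted p ran from 1.91e-13 (DESeq2) to 0.174 (limma-voom).

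Among the other thrombospondin genes, Thbs1 was the one that was expressed enough to test. Thbs1, whose protein also binds matrix and activates latent TGF-beta, stood at 120 and 165 CPM (counts scaled to library sizes adjusted by TMM) in the wild type and 364 and 240 CPM in the knockout, with an edgeR log2 fold change of 1.08 ± 0.26 (adjusted p = 0.148). Thbs3 had 3 and 7 counts in the wild type and 0 in both knockout libraries, and Thbs4 and Comp had at most 1 count in any library. Of the family, 1 of 2 tested genes passed edgeR's test, Thbs2, and none passed as higher, where 1 was higher at an unadjusted p under 0.05 and 1 in DESeq2.

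Wif1, which encodes a secreted protein that binds Wnt ligands and keeps them from their receptors, had the highest wild-type mean of the 31. It stood at 1047 and 326 normalized counts in wild-type replicates 1 and 2 and at 103 and 65.1 in the knockout. The wild-type libraries differed from each other by a ratio of 3.21, beside a ratio of 3.18 between the lower wild-type and the higher knockout value. In edgeR its log2 fold change was -3.03 ± 0.53 (adjusted p = 0.106). It was -1.96 without wild-type replicate 1 (adjusted p = 0.174) and -3.66 without wild-type replicate 2 (adjusted p = 0.00404). The fold was 8.32 (7.22 to 9.61), an interval that leaves out this spread between libraries.

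Of 15 secreted Wnt inhibitors, Wif1 was the one member, and 8 were tested. In edgeR 0 passed in either direction, with 1 lower and 1 higher at an unadjusted p under 0.05, and DESeq2 also had 1 lower and 1 higher, the lower gene in each being Wif1. The shares over all genes were 8.16% lower and 8.47% higher at an unadjusted p in edgeR, and 6.14% and 6.21% in DESeq2. Over the list the log2 fold change had a median of 0.61, beside 0.03 over all genes. Dkk3 stood at 31.9 and 29.0 CPM in the wild type and 45.6 and 35.7 CPM in the knockout, and Sostdc1 at 21.6 and 18 CPM against 13.3 and 10.8 CPM. Sfrp2 had 0 counts in the wild type and 60 and 119 counts in the knockout. Summed without Wif1, the inhibitors held 136 CPM in each wild-type library and 233 and 208 CPM in the knockout, a sum higher in the knockout where Wif1 was lower. Of these 14 genes 4 were higher in both knockout libraries than in both wild-type libraries and 2 lower. Over all 23377 genes 18% were higher in this way and 13.7% lower.

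Shh, the Hedgehog ligand made by the matrix of the growing follicle, stood at 219 and 167 normalized counts in the wild type and 40.9 and 8.85 in the knockout. Both wild-type values were above both knockout values, and the knockout libraries differed by a ratio of 4.62. Its fold was 9.04 (6.88 to 12) and its log2 fold change -2.97 ± 0.82 (edgeR adjusted p = 0.152). With knockout replicate 1 left out it was -4.44, and with replicate 2 left out it was -2.24. The overlapping gene 9530036O11Rik stood at 9.53 and 2.76 in the wild type and 6.67 and 2.08 in the knockout, far under Shh in the wild-type libraries. Scube1, a secreted protein of the family that helps release Hedgehog ligands from cells, stood at 103 and 119 in the wild type and 32.5 and 31.2 in the knockout. The fold of 3.52 (2.71 to 4.58) was the smallest of the 31, and the knockout libraries were within 1.04 of each other.

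Frem1, an extracellular matrix protein of the basement membrane under embryonic epithelium, stood at 41.3 and 48.4 normalized counts in the wild type. Its knockout libraries held 0 and 2 counts, or 0 and 1.04 normalized counts. The fold was 70.3 with a counting interval of 18.6 to 594. It was low in both knockout libraries, and the size of the fold is uncertain at 2 counts.

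The receptors were Fzd8, Oxtr and S1pr5, with wild-type means from 48.5 to 64.8 normalized counts and folds from 6.36 to 22.1. Fzd8, a Wnt receptor of the Frizzled family, stood at 30.2 and 99.5 in wild-type replicates 1 and 2 and at 6.67 and 1.56 in the knockout. Its wild-type ratio of 3.3 was the largest of the 31. Oxtr, the oxytocin receptor, stood at 33.4 and 63.6 in the wild type and at 0 and 3.65 in the knockout, and S1pr5, a receptor for sphingosine-1-phosphate, at 76.2 and 44.2 against 10.0 and 8.85.

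The genes of keratinocyte differentiation were Prr9, Tgm1 and Tgm3, with folds from 5.5 to 6.85. Tgm1, the transglutaminase that cross-links the cornified envelope, stood at 184 and 141 normalized counts in the wild type and 14.2 and 37.0 in the knockout. Tgm3, the transglutaminase of hair and epidermis, stood at 52.4 and 106 against 11.7 and 12. Prr9, a proline-rich protein encoded among the epidermal differentiation genes, stood at 340 and 502 against 25.9 and 110, with the second knockout library 4.25 times the first. In edgeR the log2 fold changes were -2.65 ± 0.74 for Tgm1, -2.74 ± 1.02 for Tgm3 and -2.61 ± 0.61 for Prr9 (adjusted p = 0.154, 0.234 and 0.147). Without knockout replicate 1 the log2 fold change was -1.95 for Prr9 and -2.14 for Tgm1, and without knockout replicate 2 it was -4.02 and -3.51. For Tgm3 it was -2.15 without wild-type replicate 2 and between -3.16 and -2.73 without any other library.

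Epidermal differentiation genes gave a list to set beside Tgm1 and Tgm3, which are on it. Of 36 epidermal differentiation genes in the counts, 24 were tested, and edgeR called 0 lower and 0 higher (4 lower and 1 higher at an unadjusted p under 0.05, and 4 lower, namely Tgm1, Tgm3, Dmkn and Ly6d, and 0 higher in DESeq2). The median log2 fold change over these genes was -0.07, beside 0.03 over all genes. Without Tgm1 and Tgm3, 2 of the 22 tested were lower and 1 higher at an unadjusted p in edgeR. The shares over all genes were 8.16% lower and 8.47% higher at that level, and 6.14% and 6.21% in DESeq2. Ly6d, a surface protein of differentiating keratinocytes, stood at 201 and 193 CPM in the wild type and 59.6 and 71.6 CPM in the knockout. Dsg1a, a desmosomal cadherin, stood at 355 and 345 CPM against 322 and 309 CPM. Krt1, a keratin of the layers above the basal epidermis, had at most 1 count in any library.

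Genes of the hair lineages, which mark the matrix and differentiating layers of the follicle, were lower in sum in the knockout beside Shh, Tgm3 and Prr9. Without Shh, the 32 hair lineage genes in the counts held 5546 and 4443 CPM in the wild-type and 3031 and 3187 CPM in the knockout libraries. Of these 32, 13 were lower in both knockout libraries than in both wild-type libraries and 6 were higher in both, where over all 23377 genes 13.7% were lower in this way and 18% higher. All 23377 include genes with no counts. Of the genes that reached 30 normalized counts in both wild-type libraries, 27.5% were lower in this way by normalized counts, not CPM. The list genes were compared by CPM and had no such floor. Krt33b and Fabp9 had 0 counts in all 4 libraries, and the cortex keratins Krt31 and Krt34 had at most 2. In edgeR 0 of the 20 tested without Shh passed (8 lower and 3 higher at an unadjusted p under 0.05, and 8 lower and 3 higher in DESeq2), with a median of -0.65. The shares over all genes were 8.16% lower and 8.47% higher at an unadjusted p in edgeR, and 6.14% and 6.21% in DESeq2. The median over all genes in edgeR was 0.03. Krt71, an inner root sheath keratin, stood at 1063 and 811 CPM in the wild type and 433 and 378 CPM in the knockout, while Krt75, a companion layer keratin, stood at 123 and 92.4 against 218 and 215 CPM. The part of these cells in the values of Shh, Tgm3 and Prr9 was not tested.

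The enzymes of metabolism made up 9 of the 31 members, with wild-type means from 45.4 to 118 normalized counts and folds from 3.92 to 29.5. Ddo, which breaks down D-aspartate, had the largest fold of them: it stood at 57.2 and 38.7 in the wild type and 3.34 and 0.521 in the knockout, from 4 and 1 counts. Hsd11b2, which inactivates glucocorticoids, stood at 96.9 and 56.7 in the wild type and 17.5 and 0 in the knockout. Ptges, a synthase of prostaglandin E, stood at 76.2 and 73.2 in the wild type and 17.5 and 2.08 in the knockout. The knockout libraries differed by ratios of 6.41 for Ddo and 8.41 for Ptges, and the wild-type libraries by 1.48 and 1.04.

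Pm20d1, an enzyme that joins fatty acids to amino acids, stood at 85.8 and 73.2 normalized counts in the wild type and 0 and 13 in the knockout. Here it was knockout replicate 1 that had no count, where Hsd11b2 had none in replicate 2. Adtrp, a membrane hydrolase of branched fatty acid esters, stood at 98.5 and 96.7 against 27.5 and 19.3. Ggt6, of the gamma-glutamyltransferase family, stood at 100.1 and 102 against 27.5 and 11.5. These 2 pairs of wild-type libraries were among the closest of all members, with ratios of 1.02 each.

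Selenbp1, a methanethiol oxidase, stood at 96.9 and 120 normalized counts in the wild type and 28.4 and 27.6 in the knockout. Nme5, of the nucleoside diphosphate kinase family and known from cilia, stood at 113 and 123 against 37.5 and 21.4. Glb1l2, a relative of beta-galactosidase, stood at 39.7 and 51.1 against 9.17 and 7.29. In Selenbp1 and Glb1l2 the libraries of each genotype lay within 1.29 of each other.

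The genes of cell death and kinase signalling were Casp12, Bcl2l14 and Srms. Casp12, an inflammatory caspase of the endoplasmic reticulum, stood at 42.9 and 41.5 normalized counts in the wild type and 0.834 and 0.521 in the knockout, which is 1 count in each knockout library. Its fold was 65.7 with a counting interval of 17.4 to 556. Srms, a kinase related to Src, stood at 69.9 and 33.2 in the wild type and 0.834 and 0 in the knockout. It had 1 count over both knockout libraries and a fold of 157 (27.2 to 6281). Bcl2l14, of the BCL2 family, stood at 41.3 and 30.4 against 7.51 and 3.12, the lowest wild-type mean of the 31 at 35.8 ± 7.7 (SD, n = 2).

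Jade2, a subunit of a histone acetyltransferase complex, stood at 84.2 and 94.0 normalized counts in the wild type and 27.5 and 3.12 in the knockout. The knockout libraries of Jade2 differed by a ratio of 8.81, the largest of the 31 among genes above 0 in both. Snrnp35, a protein of the minor spliceosome, stood at 76.2 and 67.7 against 12.5 and 20.8. Rilpl1, which overlaps Snrnp35 in RefSeq, stood at 47.6 and 47.0 in the wild type and 52.5 and 51.0 in the knockout, so the overlapping gene did not differ in the same direction.

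Cryba4, which encodes a crystallin known from the lens, stood at 58.8 and 69.1 normalized counts in the wild type. Its knockout libraries held 2 and 0 counts, with a fold of 100.3 and a counting interval of 26.9 to 841. Crybb1, the crystallin gene that overlaps it in RefSeq, had 0 in all 4 libraries. The membrane proteins Tmem125 and Tmem180, the latter now named Mfsd13a, stood at 55.6 and 85.7 and at 54.0 and 37.3 in the wild type, against 14.2 and 15.1 and 11.7 and 9.89 in the knockout.

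The 3 members listed under clone or predicted gene names were A830010M20Rik, Gm16523 and E430018J23Rik. A830010M20Rik, listed in RefSeq as an older name of Btbd8, stood at 87.3 and 127 normalized counts in the wild type and 15.8 and 3.65 in the knockout. Gm16523 is a transcribed pseudogene, the one member that is not a protein-coding gene, and stood at 92.1 and 155 against 25 and 13.5. It lies within the span of Scai, which stood at 448 and 423 in the wild type and 341 and 331 in the knockout. Whether counting used the strand is not stated in the sources used here. E430018J23Rik stood at 111 and 47.0 against 5.84 and 0, while Zfp764, which overlaps it, stood at 63.5 and 23.5 against 70.1 and 23.4. In both E430018J23Rik and Zfp764 the first wild-type library was the higher one.

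In the wild type the higher library was a median of 1.31 times the lower over the 31 members, beside 1.4 for the 6251 other genes in the same range of wild-type values. In 21 members the ratio was under 1.5, and in 5 it was over 2 (16.1%, beside 17.7% of the other genes). Those 5 were Fzd8, Wif1, E430018J23Rik, Srms and Tgm3, at 3.3, 3.21, 2.37, 2.11 and 2.03. The rule sets a floor on the lower library, so wild-type spread is not independent of it. The smallest wild-type ratios were those of Adtrp (1.02), Ggt6 (1.02), Casp12 (1.03) and Ptges (1.04), with Thbs2 at 1.05.

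In the knockout the ratio was a median of 1.8 over the 24 members with counts in both libraries, and 10 of these were over 2. Among other genes whose higher knockout value lay in the members' range, the median was 1.89 over 5155 genes with counts in both libraries. The median of the members was thus near that of these genes, which share a range of knockout values and are not matched further. The 6251 other genes in the same range of wild-type values had a knockout median of 1.32. Among those with a ratio 15.0% were over 2, beside 41.7% of the members with a ratio. Knockout replicate 1 was the higher library for 22 of the 31. The same held for 4128 of the 7102 other genes whose higher knockout value lay in the members' range. Prr9, Tgm1 and Snrnp35 were among the exceptions, with more in knockout replicate 2. In the wild type replicate 1 was higher for 15 of the 31, so the higher values were spread over both libraries there.

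**Figure D3:**
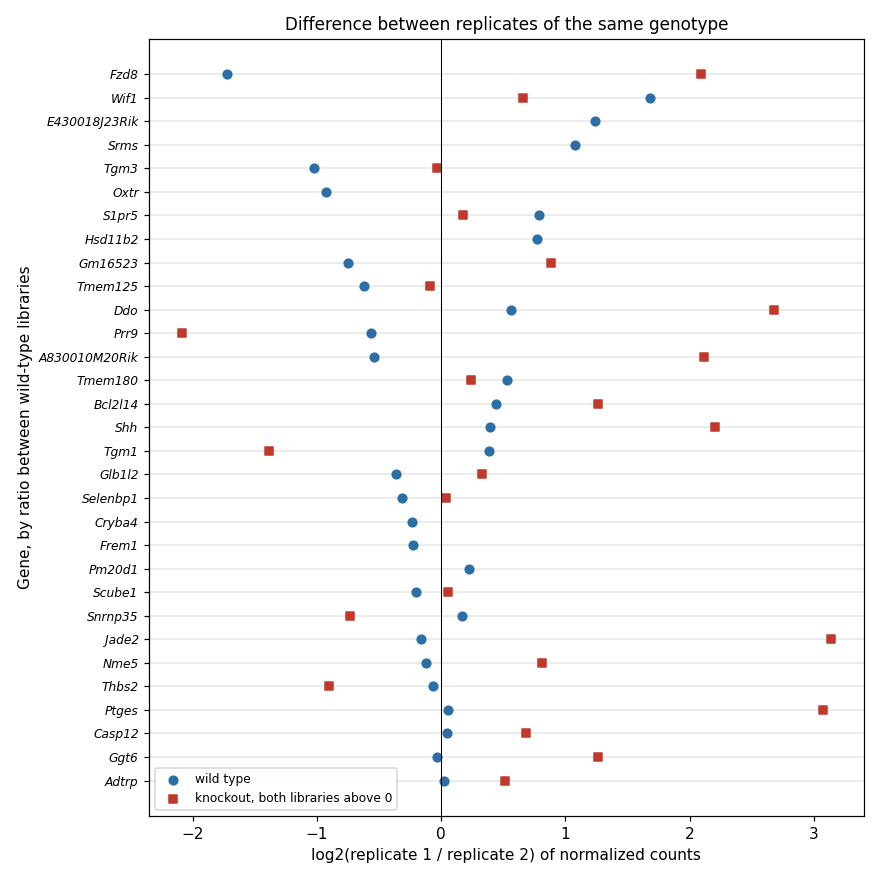
Each row is a gene, and points give log2 of replicate 1 over replicate 2 of normalized counts in the wild type (blue circles) and, for the 24 members above 0 in both libraries, in the knockout (red squares). Wild-type points scatter on both sides of 0, and most knockout points lie to the right, furthest for Jade2 and Ptges, at ratios of 8.81 and 8.41.

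The members held no common gene size. Their genomic span in RefSeq had a median of 17.4 kb, from 1.74 kb for Prr9 to 155 kb for Frem1. The 10097 other genes with a span that reached 30 in both wild-type libraries had a median of 23.9 kb. All 31 members had a span, which covers introns and is not the length of the transcript.

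Marker genes of other cell types also differed in sum between the libraries. Fibroblast and dermal papilla genes without Wif1, which is on that list, summed to 911 and 1092 CPM in the wild type and 673 and 539 CPM in the knockout. Of these 19 genes 3 were lower in both knockout libraries and 7 higher, and none was at 0 in all libraries. Over all 23377 genes 13.7% were lower in both knockout libraries than in both wild-type libraries and 18% higher. In edgeR 0 of the 13 tested passed (3 lower and 2 higher at an unadjusted p under 0.05, and 1 lower and 1 higher in DESeq2). Dcn, a matrix proteoglycan, held much of the sum at 593 and 430 CPM against 272 and 159 CPM. Pdgfra, a defining fibroblast receptor, had 1 and 19 counts in the wild type and 33 and 98 in the knockout. Crabp1, a retinoic acid binding protein of the dermal papilla, had 0 counts in the wild type and 172 and 222 in the knockout. Endothelial and mural genes, which include Acta2, summed to 666 and 762 CPM against 471 and 517 CPM. Of these 17 genes 5 were lower in both knockout libraries and 2 higher. In edgeR 0 of the 9 tested passed (3 lower and 0 higher at an unadjusted p under 0.05, and 3 and 0 in DESeq2). Over all genes 8.16% were lower and 8.47% higher at an unadjusted p in edgeR, and 6.14% and 6.21% in DESeq2. The part of these lists in the values of Thbs2 and Wif1 was not tested.

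Leukocyte genes summed to 1786 and 834 CPM against 470 and 476 CPM in the wild type. Of 30 genes 13 were higher in both knockout libraries, 3 were lower and 2 were at 0 in all libraries. Over all 23377 genes 18% were higher in both knockout libraries than in both wild-type libraries and 13.7% lower. Of 21 tested, edgeR called 0 lower and 2 higher (1 lower and 12 higher at an unadjusted p under 0.05, and 1 lower and 9 higher in DESeq2), where 0.0533% of all genes were called higher, 8.47% at an unadjusted p and 6.21% in DESeq2. Skeletal muscle genes separated the wild-type libraries, with 74.8 CPM in replicate 1 and 3059 CPM in replicate 2, against 1205 and 221 CPM in the knockout. Col1a1, a collagen of the dermis, stood at 14.4 and 113 CPM in the wild type. Genes of the dividing cell were also lower in sum in the knockout: mitosis genes held 8040 and 8409 CPM in the wild type against 6240 and 5970 CPM, and S phase genes 6830 and 5571 CPM against 4480 and 4861 CPM. In both knockout libraries 27 of 43 mitosis genes were lower and 0 higher than in both wild-type libraries, and 21 of 40 S phase genes were lower and 1 higher. Of the genes that reached 30 normalized counts in both wild-type libraries, 27.5% were lower in this way by normalized counts, not CPM. The list genes were compared by CPM and had no such floor. No mitosis or S phase gene passed edgeR's adjusted test, with 16 lower and 0 higher, and 12 lower and 1 higher, at an unadjusted p under 0.05. DESeq2 had 14 and 9 of them lower and 0 higher. Over all genes 8.16% were lower at an unadjusted p in edgeR and 6.14% in DESeq2. Cholesterol synthesis genes had 7 of 21 tested lower and 0 higher at an unadjusted p in edgeR (6 and 0 in DESeq2), and interferon response genes 0 of 25 lower and 7 higher (0 and 7 in DESeq2), with 0 past the adjusted edgeR test. The part of these lists in the values of the 31 genes was not tested.

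**Figure D4:**
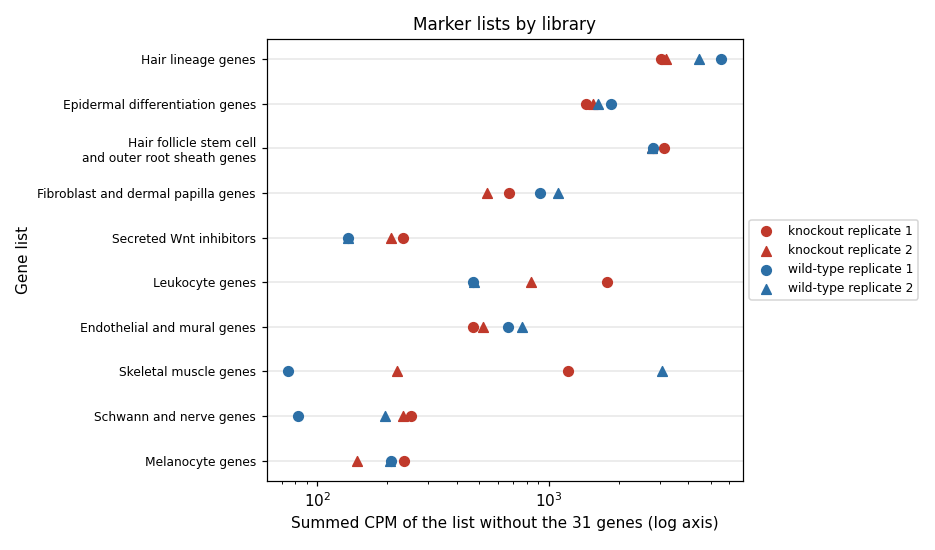
Each row is a gene list and each point the summed CPM of its genes in a library, without the 31 members, on a log axis, with knockout in red, wild type in blue, circles for replicate 1 and triangles for replicate 2. Hair lineage genes are lower in both knockout libraries (3031 and 3187 against 5546 and 4443 CPM), leukocyte genes are higher, and skeletal muscle genes separate replicates of the same genotype.

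The number of members rests on all 4 libraries having to meet the rule. With the condition on 3 libraries it took 126 genes without knockout replicate 1 and 116 without knockout replicate 2, and 228 and 127 without wild-type replicates 1 and 2. All 31 members were among the genes in each case, as dropping a condition must leave them.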

How the data were processed

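RNA-seq of 4 libraries was used. Build mm9 and the tools TopHat2 2.1.1, HTSeq 0.7.2, Bowtie 1.2.2, bcl2fastq 2 and DESeq2 are named, without roles, per the submitters' processing notes. The annotation and any use of strand are not stated there. The authors deposited whole-number counts and a normalized signal, in which each library's counts are divided by a single size factor. Their deposited comparison table holds log2 fold changes, a test score, raw and adjusted p-values and a mark of direction, per the file headers.

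Members were found on the normalized signal. The counts went into edgeR 4.0.16 under R 4.3.3 (filterByExpr, TMM, robust quasi-likelihood test, genotype as the only term), adjusted over 13134 genes, with DESeq2 1.42.0 and limma 3.58.1 as alternatives. SE was taken as the size of a log2 fold change divided by the root of its F statistic. The code of the test was checked on simulated counts with the same spread set for every gene. That does not show how the test performs at the spread of these libraries. All 31 symbols matched RefSeq (GRCm38.p6). Peak lists were not used here. The named genes were Thbs2, members with the highest wild-type values, the largest ratios, the largest and smallest wild-type spread, those nearest each threshold and members of 29 gene lists. The other members, and the list genes given as examples, were chosen after their values were seen. The members and lists were chosen with earlier results of these data known. The lists not described in the results held no member. At an adjusted p under 0.05 edgeR called 0 of their genes lower and 0 higher, except 1 higher among follicle stem cell genes. At an unadjusted p under 0.05 some lists exceeded the all-gene shares of 8.16% lower and 8.47% higher. Of 16 glycolysis genes tested 8 were lower and 1 higher, and of 26 sebaceous and lipid genes 6 and 1. For 25 follicle stem cell genes these numbers were 3 and 6, and for 21 collagens 3 and 6. DESeq2 had 6 and 1, 3 and 1, 3 and 6, and 1 and 5 in these lists. The replicate numbers were not taken as pairs: between same-numbered libraries the deviations from the group means correlated at -0.12 across genes.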

Additional observations from a re-analysis of the deposited data

How the results depend on the processing

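The rule took 5 genes with TMM-scaled CPM in place of normalized counts, where a floor of 30 is a higher number of reads, 20 with a floor of 50, 70 with a ratio of 2, 10 with a ratio of 5 and 205 with group means. Leaving out a library gave 116 to 228 genes. Thbs2 met the rule under every one of these settings. Every member must do so with a ratio of 2, with group means and when a library is left out. The other settings reread the counts behind the values that chose it. In edgeR 8 genes were called over the whole table, and the number was 1 with DESeq2 size factors, 802 with no low-count filter, 1 with at least 1 CPM in 2 libraries, 1 with a trend on genomic span and abundance removed, 1792 in DESeq2 and 0 in limma-voom (1945 at an unadjusted p under 0.05), with a range of 0 to 60 when a library was left out. Members called lower numbered 1 in edgeR, 0 with DESeq2 size factors, 9 with no low-count filter, 0 with at least 1 CPM in 2 libraries, 0 with the trend removed, 23 in DESeq2 and 0 in limma-voom (28 at an unadjusted p under 0.05), with 0 to 2 when a library was left out. The cause was not tested. The median log2 fold change of the members was -3.56 once that trend, added after seeing the data, was taken out, and -3.4 to -2.58 when a library was left out. With the replicate block 416 genes and 4 members were called. Since deviations of same-numbered libraries correlated at -0.12, a crossed replicate block was added after the data were seen, and it called 8 genes and 0 members. A trend on transcript length was not run, since the table gives genomic span. Counts of 0 to 3 in a knockout library limit the folds of Thbs2, Casp12, Cryba4, Srms, Frem1, Ddo, Oxtr, E430018J23Rik, Hsd11b2, Pm20d1 and Fzd8. The log2 fold change ran from -9.39 to -2.13 for Hsd11b2 and from -9.08 to -2.61 for Pm20d1 when a library was left out.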
